A study of Zea mays with 24 samples.

Results

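The gene lkrsdh1 of maize encodes the enzyme that opens the breakdown of lysine, and its transcript level was followed across 2 inbred lines and 4 water treatments. It is 1 of 1108 genes that the array annotation names, and 1 probe set is annotated to it. It was found by matching its gene identifier to the synonym lkrsdh1 in a current gene table, because the annotation itself carries only a placeholder symbol. The gene had been chosen by its measured response to drought on these same arrays. Its levels and differences are therefore given as a description, with errors and without tests.

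Biotin-labelled RNA from shoots of seedlings with 3 leaves was hybridised to 24 oligonucleotide arrays. The inbred lines were Han21 and Ye478, and each was sampled as a control, under moderate drought stress, under severe drought stress and after re-watering. Each of the 8 groups had 3 arrays, titled as biological replicates, and no transgene, mutation or chemical is named for any group. Soil water content and the length of each treatment are not stated. Shoots are the labelled tissue, but mesocotyls are what the RNA protocol describes grinding, and the design text mentions independent experiments without saying which arrays belong to which. The p-values given for other genes thus measure the spread between these arrays, whatever that spread covers.

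Lysine is broken down in plants by the saccharopine pathway. A bifunctional protein, lysine-ketoglutarate reductase joined to saccharopine dehydrogenase, condenses lysine with 2-oxoglutarate to saccharopine and then splits saccharopine into glutamate and an aminoadipic semialdehyde. The pathway thus consumes an amino acid made from aspartate and delivers its nitrogen as glutamate. In maize the gene is best known from the endosperm, where the bZIP factor opaque2 activates it and where its activity lowers free lysine in the grain. In Arabidopsis the corresponding locus also yields shorter transcripts for saccharopine dehydrogenase alone. The files do not give the positions of the probes, so such forms cannot be told apart here.

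The deposited values are signals in arbitrary array units, scaled by the authors so that the 2% trimmed mean was 500.1 to 500.2 on every array. A level is therefore relative to the total signal of its array, and fewer cells of a type cannot be told apart from less RNA per cell. All 9 green shoot markers (photosynthesis genes) lay above the filter level, the array's 40th percentile of 74.3 to 108.0 units, on all 24 arrays. Of 12 endosperm markers, 10 lay below it on every array, among them o2, which encodes opaque2 and read 0.718 to 32.9 units. The exceptions were bt2, above it on 23 arrays, and gz27, above it on 5. The summed green shoot signal moved with the treatments: 50894 to 65328 units in Han21 controls and 33691 to 40241 under severe drought, against 50278 to 64890 and 27486 to 37822 in Ye478. After re-watering it was 60645 to 83560 in Han21 and 64463 to 79552 in Ye478, while the summed endosperm markers, 234.5 to 467.4 units over all arrays, were also lower under severe drought, at 234.5 to 279.0 against 312.1 to 353.2 units in Han21 controls and 248.8 to 337.8 against 408.3 to 467.4 in Ye478. Of 7 pairs of control probe sets for the 3' and 5' ends of 1 transcript, 2 in Han21 and 3 in Ye478 had a lower mean 3' to 5' ratio under severe drought than in controls, and 4 and 2 had a lower one after re-watering. Actin and gapdh have 2 pairs each. From control to severe drought in Han21 the actin pairs went from 1.87 to 1.03 and from -3.17 to -1.23 (log2), in opposite directions. The SD reached 3.28 in the second actin pair and 2.42 in 1 gapdh pair (Ye478 controls, n = 3), so the counts include noisy pairs. The part of these shifts in the values of lkrsdh1 was not tested.

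The lkrsdh1 transcript was low in watered shoots, several times higher under moderate drought, higher again under severe drought, and back at or below the control level after re-watering. In Han21 controls it read 380.8, 285.6 and 335.8 units, a mean of 334.1 ± 47.6 (SD, n = 3). Under moderate drought the Han21 arrays read 1930, 2069 and 1543 units, with a mean of 1847 ± 273. Severe drought gave 2979, 3030 and 2734 units in Han21 and a mean of 2914 ± 158. After re-watering the 3 Han21 arrays read 238.0, 164.5 and 207.8 units, a mean of 203.4 ± 37.0. In Han21 the 4 treatments did not overlap, and every re-watered array was below every control.

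The Ye478 controls read 324.9, 317.8 and 370.4 units, a mean of 337.7 ± 28.6 (SD, n = 3). Moderate drought gave 2133, 2125 and 2876 units, with a mean of 2378 ± 431, the widest spread of the 8 groups in units. Under severe drought the values were 3645, 3084 and 3205 units and the mean 3311 ± 295. Re-watered Ye478 shoots read 314.8, 319.9 and 381.6 units, a mean of 338.8 ± 37.2. The highest of the moderate arrays lay below all severe arrays, and the re-watered arrays overlapped the controls.

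**Figure D1:**
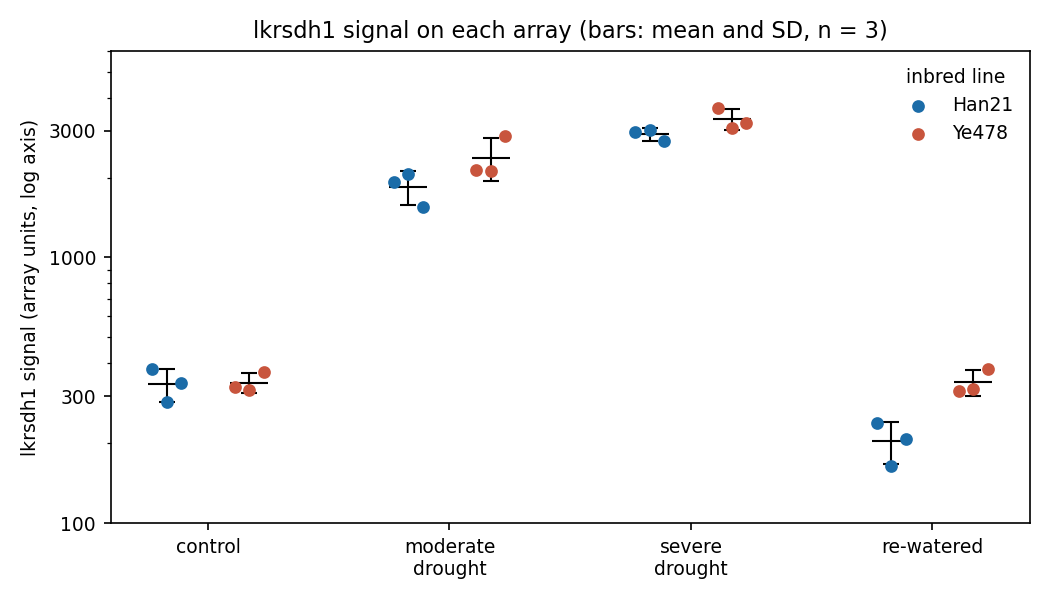
Signal of lkrsdh1 in array units on a log axis, for each of the 24 arrays by treatment. Points are arrays, blue for Han21 and red for Ye478, and black bars give the mean and SD of 3 arrays. The means go from 334.1 and 337.7 units in controls to 2914 and 3311 under severe drought, and after re-watering the Han21 arrays lie below their controls while those of Ye478 overlap theirs.

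Ordered by mean signal, the groups ran from Ye478 severe drought through Han21 severe, Ye478 moderate and Han21 moderate drought to a low cluster of both controls and re-watered Ye478, with re-watered Han21 last. Ye478 severe drought lay 397.2 units above Han21 severe drought, with no overlap of the arrays. Han21 severe and Ye478 moderate drought overlapped through the Ye478 moderate array of 2876 units. The arrays of moderate drought did not overlap between the lines. Re-watered Ye478, Ye478 control and Han21 control were neighbours whose means differed by 1.05 and 3.68 units, far less than their SDs.

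On the log2 scale, with 4.56 units added to every value, severe drought minus control was 3.12 ± 0.15 (SE of the model of all arrays, n = 3 arrays a group) in Han21 and 3.28 ± 0.15 in Ye478. In mean signal the severe level was 8.72 times the control level in Han21 and 9.81 times in Ye478. Moderate drought minus control was 2.45 ± 0.15 in Han21 and 2.79 ± 0.15 in Ye478. Most of the severe minus control difference was thus present at moderate drought: 58.7% of it in signal and 78.6% on the log2 scale in Han21, 68.6% and 85.1% in Ye478. The step from moderate to severe drought was 0.67 ± 0.15 in Han21 and 0.49 ± 0.15 in Ye478.

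The level was low again after re-watering. Re-watered minus severe drought was -3.83 ± 0.15 in Han21 and -3.27 ± 0.15 in Ye478. Against controls, re-watered shoots stood at -0.71 ± 0.15 in Han21, 0.609 times the control signal, and at 0.00 ± 0.15 in Ye478, 1.00 times the control signal. The lower level in Han21 was present within each replicate number, at -0.67, -0.78 and -0.68, while the Ye478 values were -0.04, 0.01 and 0.04.

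Differences between the lines were small beside those between treatments. Of the sum of squares of the 24 log2 values, 97.3% lay between treatments, 1.05% between lines, 0.70% in their combination and 0.94% within groups. Ye478 minus Han21 was 0.02 ± 0.15 in controls, 0.36 ± 0.15 in moderate drought, 0.18 ± 0.15 in severe drought and 0.73 ± 0.15 after re-watering. Leaving out replicate 3 of every group brought the moderate difference to 0.09. The severe minus control difference was larger in Ye478 by 0.16 ± 0.22, which is less than its error. Within the replicate numbers that last difference was 0.52, -0.13 and 0.09, so its sign was not the same in all 3. The re-watered minus control difference was larger in Ye478 by 0.71 ± 0.22, and by 0.62, 0.79 and 0.72 within the numbers.

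Among all probe sets, the drought differences of lkrsdh1 were large. Of 12074 probe sets bright enough to be tested, 106 had a larger difference between severe drought and control in Han21 and 141 in Ye478. Among the 1054 of these that name 1 gene, 18 and 30 had a larger one. For moderate drought, 128 probe sets in Han21 and 99 in Ye478 had a larger difference. The re-watered difference in Han21 was less extreme, with 1296 probe sets below it.

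**Figure D2:**
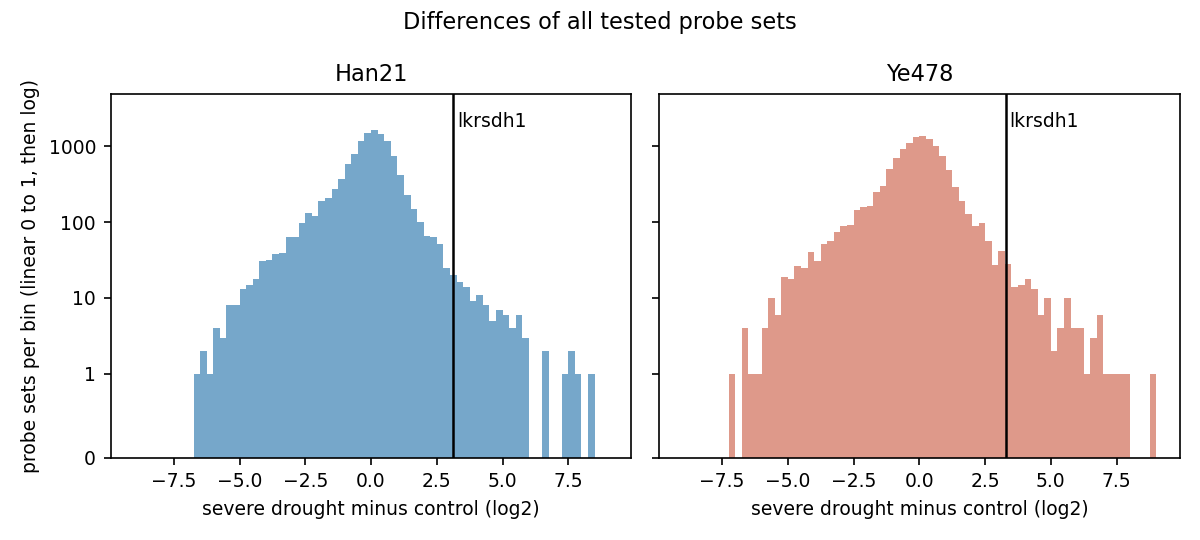
Number of probe sets in bins of the log2 difference between severe drought and control, for all 12074 tested probe sets in Han21 (left) and Ye478 (right), on a count axis that is logarithmic above 1. The black line marks lkrsdh1, at 3.12 and 3.28, in the thin upper tail of each distribution.

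The order of the groups in lkrsdh1 was also counted over all probe sets. Its conditions, also the last one below, were read from the values of lkrsdh1 itself. Membership of that gene was therefore fixed in advance, and the counts do not measure how rare the pattern is. A probe set was counted when its moderate-drought arrays all lay above its control and re-watered arrays and below its severe-drought arrays. This held for 737 probe sets (6.10%) in Han21, 782 (6.48%) in Ye478 and 302 (2.50%) in both lines, lkrsdh1 among them. Requiring re-watered Han21 arrays below all Han21 controls as well left 114 probe sets (0.944%), which name 7 genes. Besides lkrsdh1 these were AMADH2, for an aminoaldehyde dehydrogenase, cat1, for a catalase, cdpk1, for a calcium-dependent protein kinase, cycD2, for a D-type cyclin, gst23, for a glutathione S-transferase, and vacs1. They are named for completeness, after their values were seen. Another probe set of cat1 met the conditions in both lines but not the added one on re-watered Han21.

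The named genes whose log2 levels followed lkrsdh1 most closely over the 24 arrays were sh1 (Pearson r = 0.985), vacs1 (0.976), LOC542127 (0.961), psiP (0.957), gst17 (0.957) and SRP1A (0.956). Among all other probe sets, most of them without a gene name, these ranked 3, 16, 57, 86, 89 and 97. Under 6 alternative settings, 2 to 5 of these 6 genes stayed in the list. All points share the lines, treatments and replicate numbers, so r mostly reflects the treatment means and carries no p. Of 12073 other probe sets, 466 (3.86%) had r above 0.9 and 556 (4.61%) below -0.9, so that a close match was not rare. The 3 named genes most opposite were FAD8 (-0.973), fae1 (-0.972) and hcf106 (-0.967).

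The gene sh1 encodes a sucrose synthase, which cleaves sucrose. Its signal was 2900, 2382 and 2359 units in Han21 controls and 8148, 10871 and 9527 under severe drought. In Ye478 it went from 2794, 2640 and 2773 to 9869, 8709 and 8821 units. Severe and control arrays did not overlap in either line. Its severe minus control difference was 1.90 in Han21 and 1.74 in Ye478, against 3.12 and 3.28 for lkrsdh1, so the courses were alike in shape and not in size. LOC542127, which the gene table leaves without a name, came closest in size, at 2.85 and 3.49. It parted from lkrsdh1 after re-watering in Ye478, where it stood 1.09 above its control. A glutathione S-transferase is encoded by gst17, whose severe minus control difference was 1.03 in Han21 and 1.59 in Ye478.

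FAD8 encodes a plastid fatty acid desaturase. It read 1596, 1626 and 1956 units in Han21 controls and 312.2, 497.1 and 347.2 under severe drought. Its severe minus control differences were -2.17 in Han21 and -3.00 in Ye478. A fatty acid elongase is encoded by fae1, which differed by -5.39 and -5.03, though its severe arrays, at 7.13 to 29.6 units, were all below the filter level. The gene hcf106, for a part of the thylakoid protein export machinery, differed by -1.16 and -1.37. All 3 were below control in both drought treatments of both lines.

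**Figure D3:**
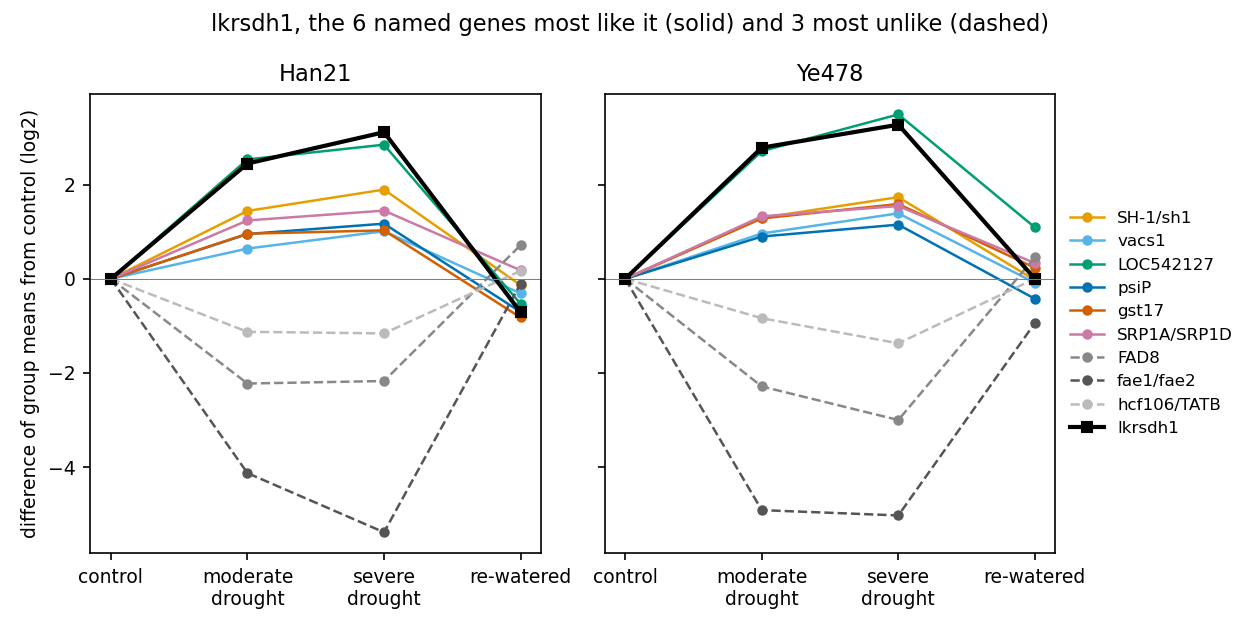
Difference of each group mean from the control of its line, in log2 units, by treatment for Han21 (left) and Ye478 (right). The black line is lkrsdh1, solid lines the 6 named genes most like it and dashed lines the 3 most unlike. LOC542127 runs beside lkrsdh1 at severe drought (2.85 and 3.49 against 3.12 and 3.28), while the other 5 differ less from control.

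Other genes around lysine were tested in the same model, with p-values adjusted by Benjamini-Hochberg over all 12074 probe sets (limma), a threshold of 0.05 and n = 3 arrays a group. The annotation named 27 of them in 5 lists, and 23 were bright enough to be tested. Under severe drought in Han21, 8 of the 23 rose and 10 fell, where 28.9% of all tested probe sets rose and 28.7% fell. In Ye478, 9 rose and 11 fell against 30.3% and 33.4% of all. The median difference of the 23 genes was -0.23 in Han21 and -0.30 in Ye478, and that of all tested probe sets 0.03 and -0.02. These shares are the measure for the counts of each list below, and no list was tested as such.

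Moderate drought moved fewer of them. In Han21, 7 rose and 6 fell, where 19.3% of all probe sets rose and 22.0% fell. Without the Han21 moderate array of replicate 2 the total dropped from 13 to 8. When the model took the replicate number as a block, 8 rose and 10 fell. The background moved too: the share of all probe sets called in either direction was 41.3% in the main model. It ranged from 29.4% to 50.4% under the other settings, the block among them, and from 25.4% to 41.9% with replicates left out. In Ye478, 4 rose and 8 fell, against 23.6% and 25.0%. After re-watering 8 rose and 2 fell in Han21, beside 15.8% and 19.3% of all, and likewise 8 and 2 in Ye478, beside 12.1% and 16.3%.

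Lysine and its sister amino acids are made from aspartate. Of 4 tested genes of that synthesis, 0 rose under severe drought, beside 28.9% of all probe sets in Han21 and 30.3% in Ye478, and 1 fell in Han21 and 2 in Ye478, beside 28.7% and 33.4%. A count over 4 genes is too small to be read against those shares. The list's median was -0.18 in Han21 and -0.44 in Ye478. The gene dps1 encodes dihydrodipicolinate synthase, the enzyme that commits carbon to lysine. It read 292.3, 272.5 and 270.8 units in Han21 controls and 297.8, 287.3 and 256.9 under severe drought, overlapping groups with a difference of 0.01 ± 0.13 (SE, limma adjusted p = 0.958). In Ye478 it went from 377.5, 303.5 and 393.4 units to 260.2, 231.3 and 219.9, with no overlap, a fall of -0.58 ± 0.13 (adjusted p = 0.000436). Beside it, lkrsdh1 was 3.12 and 3.28 above its controls in the same shoots of Han21 and Ye478.

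The gene akh2, for a bifunctional aspartate kinase and homoserine dehydrogenase at the head of the family, fell by 0.89 ± 0.29 in Han21 (limma adjusted p = 0.0126) and by 0.97 ± 0.29 in Ye478 (0.00614). These calls were fragile. No severe-drought array was above the filter level, at 34.6 to 71.8 units in Han21 and 54.7 to 70.7 in Ye478, so the size of the fall depends on the constant added. With quantile normalization the adjusted p was 0.201 and 0.0887, and in Han21 it was 0.0828 without replicate 1 of the controls and 0.0898 without replicate 3 of severe drought. AKHSDH1, for an enzyme of the same kind, did not pass, at -0.10 ± 0.18 (adjusted p = 0.638) and -0.30 ± 0.18 (0.142). Cystathionine gamma-synthase, which leads to methionine, is encoded by cgs1, and it did not pass either, at -0.26 ± 0.13 (0.0996) and 0.19 ± 0.13 (0.201). Without replicate 2 of severe drought in the line concerned, cgs1 passed in Han21 (0.0252) and in Ye478 (0.0454), with opposite signs.

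Of the factors known to act with opaque2 in endosperm, o2 and PBF were too dim to be tested and 3 were tested. Under severe drought 2 of the 3 rose and 1 fell in each line. Of all probe sets 28.9% rose and 28.7% fell in Han21, and 30.3% and 33.4% in Ye478. A count over 3 genes is too small to be read against those shares. The gene ohp1, for a bZIP partner of opaque2, read 423.8, 397.3 and 413.2 units in Han21 controls and 692.6, 909.1 and 1269 under severe drought. In Ye478 it went from 155.0, 187.9 and 216.4 units to 447.9, 546.5 and 591.5. The groups did not overlap in either line. Its rise was 1.17 ± 0.19 in Han21 (limma adjusted p = 2.85e-05) and 1.48 ± 0.19 in Ye478 (9.66e-07).

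The related ohp2 rose by 0.64 ± 0.12 in Han21 (limma adjusted p = 0.000139) and by 0.29 ± 0.12 in Ye478 (0.0445). Leaving out any 1 of 6 arrays took the Ye478 call past 0.05, up to 0.132: replicates 1 and 2 of Ye478 control and of Ye478 severe drought, replicate 2 of Ye478 moderate drought and replicate 1 of Han21 moderate drought. That call was also lost with quantile normalization (0.0517), with no filter (0.0572) and in a fit of only the groups compared (0.0686). Nkd1, for an endosperm transcription factor, fell by 0.78 ± 0.13 in Han21 (2.19e-05) and by 0.96 ± 0.13 in Ye478 (1.17e-06). After re-watering neither ohp1 nor ohp2 passed the test against control, with adjusted p from 0.319 to 0.943, while Nkd1 was still lower in Ye478 (-0.57 ± 0.13, 0.00195) and did not pass in Han21 (-0.13 ± 0.13, 0.472).

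The saccharopine pathway releases glutamate, and the list of glutamate and asparagine genes holds glutamine synthetases, a glutamate dehydrogenase and an asparagine synthetase. Under severe drought 2 of 7 rose and 5 fell in each line, beside 28.9% and 28.7% of all probe sets in Han21 and 30.3% and 33.4% in Ye478, with a median of -1.08 in Han21 and -0.88 in Ye478. The Ye478 fall of gln5, a glutamine synthetase gene (limma adjusted p = 0.0116), was lost without replicate 3 of Ye478 severe drought (0.0650). Asparagine synthetase, which moves nitrogen from glutamine to aspartate, is encoded by asn1. It read 156.8, 206.6 and 132.6 units in Han21 controls, 4455, 6089 and 4836 under moderate and 9170, 11269 and 9666 under severe drought. In Ye478 it read 992.0, 1033 and 1024 units in controls, 11062, 11281 and 9619 under moderate and 12458, 13440 and 10472 under severe drought. The drought arrays lay far above the controls in both lines, and the Ye478 controls far above those of Han21. All asn1 values given here are from its probe set with the highest mean. Another tested probe set of asn1 had its moderate arrays all below its severe arrays in both lines, while in Ye478 the values above overlapped. The sizes of its differences are not given here.

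The rise of asn1 from control to severe drought was 5.90 ± 0.19 in Han21 (limma adjusted p = 2.08e-15) and 3.56 ± 0.19 in Ye478 (1.05e-12). Unlike lkrsdh1, asn1 was still above control after re-watering, at 521.3, 786.3 and 1029 units in Han21 and 6680, 7417 and 6527 in Ye478. That remainder was 2.17 ± 0.19 (1.35e-08) and 2.75 ± 0.19 (3.13e-10).

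Glutamine synthetase binds ammonium to glutamate. The cytosolic form gln2 read 154.5, 72.7 and 71.5 units in Han21 controls and 573.0, 505.5 and 537.8 under severe drought, and rose by 2.47 ± 0.28 (limma adjusted p = 1.78e-07). In Ye478 it went from 39.9, 55.7 and 65.9 to 363.7, 259.4 and 289.9 units, and rose by 2.41 ± 0.28 (1.82e-07). Severe and control arrays did not overlap in either line. All 3 Ye478 controls and 2 of 3 Han21 controls were under the filter level, so the size of these rises depends on the constant added. It too stayed above control after re-watering, by 2.92 ± 0.28 in Han21 (7.53e-08) and 1.65 ± 0.28 in Ye478 (0.000119).

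The plastid form gln1 went the other way, from 2212, 1864 and 1790 units in Han21 controls to 721.2, 524.2 and 413.3 under severe drought, and fell by 1.85 ± 0.19 (limma adjusted p = 2.8e-08). In Ye478 it fell by 1.28 ± 0.19 (3.68e-06). The cytosolic forms gln3 and GLN6 fell by 1.95 ± 0.38 (0.000161) and 0.86 ± 0.16 (0.000139) in Han21, and by 3.50 ± 0.38 (6.31e-08) and 1.02 ± 0.16 (1.46e-05) in Ye478. In severe Ye478 shoots gln3 read 3.96 to 23.9 units, under the filter level. In severe Han21 shoots it read 36.1 to 98.4 units, with 1 of 3 arrays above that level, and its Han21 controls read 407.7, 193.4 and 199.5. The size of the gln3 fall thus depends on the constant added in both lines. Members of this family are alike in sequence, and cross-hybridisation between them was not tested. Glutamate dehydrogenase, which can release ammonium from glutamate, is encoded by gdh1. It fell from 571.4, 523.5 and 499.2 units to 250.0, 202.8 and 218.8 in Han21, a change of -1.23 ± 0.13 (7.85e-08). In Ye478 the change was -0.65 ± 0.13 (0.000234).

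The semialdehyde formed from saccharopine is oxidised by an aldehyde dehydrogenase. The annotation names 6 aldehyde dehydrogenase genes, none of them for that step. Of 5 tested under severe drought, 2 rose and 2 fell in Han21 and 3 rose and 2 fell in Ye478, beside the same shares of all probe sets. One of the Han21 rises, that of AMADH1b (0.31 ± 0.13, limma adjusted p = 0.0436), was lost without replicate 2 or 3 of Han21 control (0.0905, 0.166), replicate 1 or 2 of Han21 severe drought (0.185, 0.0774), replicate 2 of Ye478 severe drought (0.0502) or replicate 2 of re-watered Ye478 (0.0503). It was also lost with median centring, with no filter (0.0576), with eBayes without trend (0.0540) and in a fit of only the groups compared (0.0953). AMADH2, for an enzyme that oxidises aminoaldehydes, read 666.9, 744.6 and 823.8 units in Han21 controls and 980.5, 1124 and 1075 under severe drought, with no overlap. It rose by 0.51 ± 0.11 in Han21 (limma adjusted p = 0.000551) and by 1.22 ± 0.11 in Ye478 (4.87e-09). After re-watering it stood at 564.5, 502.7 and 454.6 units in Han21, below every control, and had fallen by 0.55 ± 0.11 (0.000634). In Ye478 the re-watered value was -0.19 ± 0.11 and did not pass (0.214). The gene rf2c, for another aldehyde dehydrogenase, fell under severe drought by 1.39 ± 0.16 in Han21 (1.67e-07) and by 2.25 ± 0.16 in Ye478 (7.19e-11), and rose after re-watering by 0.74 ± 0.16 (0.00104) and 1.58 ± 0.16 (8.73e-08).

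**Figure D4:**
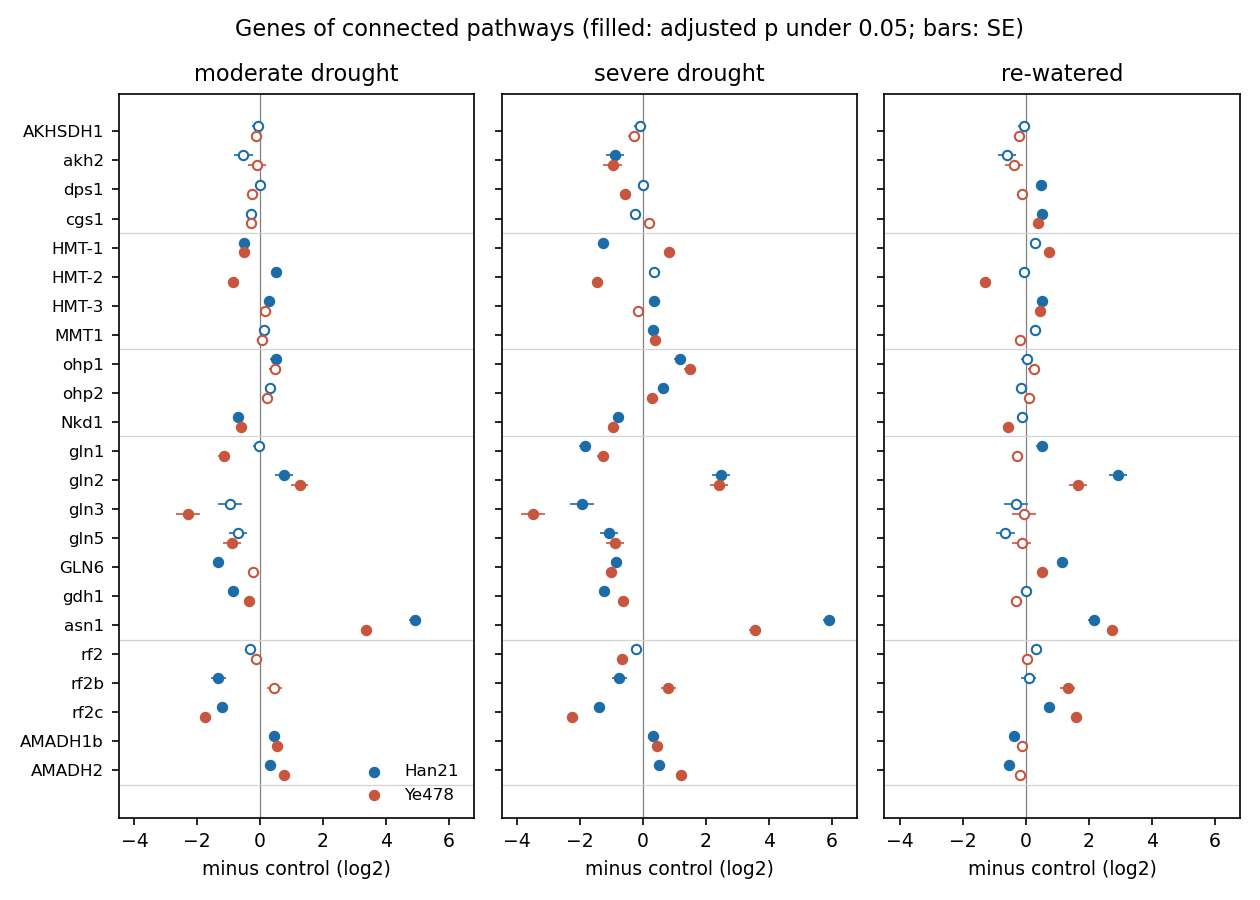
Log2 difference from control, with its SE, for the 23 tested genes of connected pathways under moderate drought, severe drought and after re-watering. Filled points passed an adjusted p of 0.05 and open points did not, blue for Han21 and red for Ye478, and grey lines part the lists. The largest rise is that of asn1, 5.90 in Han21 and 3.56 in Ye478 under severe drought, and the 4 genes of aspartate-family synthesis at the top stay between -0.97 and 0.19 there.

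Methionine, another product of the aspartate family, is recycled through the S-methylmethionine cycle, whose list of 4 tested genes was put together after the annotation had been read. MMT1 encodes its methionine S-methyltransferase and the HMT genes its homocysteine S-methyltransferases. Under severe drought HMT-3 and MMT1 rose and HMT-1 fell in Han21, while HMT-1 and MMT1 rose and HMT-2 fell in Ye478. These calls stand beside the same shares of all probe sets, and 4 genes are too few to be read against them. The Han21 call of MMT1 (limma adjusted p = 0.0299) was lost without replicate 1 of the controls (0.183), replicate 2 (0.117) or replicate 3 (0.0697) of severe drought. It was also lost with median centring (0.0541), with quantile normalization (0.0903) and in a fit of only the groups compared (0.0987). HMT-1 fell from 643.7, 615.3 and 553.6 units to 264.5, 285.4 and 195.8 in Han21, a change of -1.28 ± 0.16 (limma adjusted p = 6.32e-07). In Ye478 it rose from 721.9, 659.1 and 560.0 to 1238, 1100 and 1135 units, by 0.84 ± 0.16 (9.88e-05). Its relative HMT-2 fell in Ye478 by 1.48 ± 0.16 (5.32e-08) and stood at 0.35 ± 0.16 in Han21 (0.0628). With the replicate number as a block that Han21 value passed (0.0216), as it did without replicate 2 of Han21 severe drought (0.0345) or replicate 1 of Ye478 severe drought (0.0478).

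The difference between the lines in the response to severe drought was itself tested. As Ye478 minus Han21 it passed for 9 of the 23 genes, positive for 4 and negative for 5, where 16.2% of all probe sets passed in either direction. A positive sign can mean a smaller fall in Ye478, as for gdh1, and a negative sign a larger fall, as for rf2c. With the replicate number as a block, 5 were positive and 7 negative, where 25.1% of all probe sets passed. Without the block the difference was 2.12 ± 0.23 for HMT-1 (limma adjusted p = 1.61e-06), -1.83 ± 0.22 for HMT-2 (9.55e-06) and -2.34 ± 0.26 for asn1 (3.57e-06). The corresponding value of lkrsdh1, given without a test, was 0.16 ± 0.22.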

How the data were processed

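Each array's deposited signal intensity had been computed by the authors with GCOS and MAS5, per the submitters' processing notes, which give no versions. No normalization was added. Control probe sets (179) were left out, and 12074 of 17555 gene probe sets were kept that lay above the array's 40th percentile on at least 3 arrays. Before taking log2, 4.56 units (the 10th percentile over the deposited intensities) were added. A single limma model (eBayes with trend, 16 residual degrees of freedom) held a mean for each of 8 groups, and p-values were adjusted within a comparison. The number of arrays limits the precision.

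A gene with several tested probe sets was represented by the one with the highest mean. The annotation names 1 gene for 1452 probe sets. Current names came from the RefSeq table of another genome assembly, used for names only. The gene lkrsdh1 and all lists were chosen with earlier results of these data known. The gene table holds symbols only, so the lists were put together by symbol, which left lkrsdh1 alone in the list of lysine breakdown. ald1 and akin1 matched a listed symbol but are other genes and were left out. Named genes were every tested member of the aspartate and opaque2 lists, the 8 members of the glutamate and aldehyde lists with the smallest adjusted p under severe drought, and the 6 genes most like and 3 most unlike lkrsdh1. HMT genes, MMT1, rf2b, gln5, AMADH1b and the genes sharing the group order of lkrsdh1 were added after their values were seen.

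Arrays of the same replicate number deviated together from their group means (r = 0.151 to 0.694 over 42 pairs across probe sets), so the number was taken to pair them. The main model did not hold that pairing, and errors, p-values and calls are from it unless another setting is named. A fit with the number as a block was made as an alternative. Software comprised limma 3.58.1 (R 4.3.3), pandas 2.3.3 and numpy 2.4.6 (Python 3.11.15), with matplotlib 3.10.9 for plots. Alternatives are given in the closing section.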

Additional observations from a re-analysis of the deposited data

Results flagged for a closer look

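For 9 genes of the connected pathways the response to severe drought differed between the lines by the test of the difference itself (Ye478 minus Han21, log2, SE, limma adjusted p). The difference was positive for HMT-1 (2.12 ± 0.23, 1.61e-06), rf2b (1.56 ± 0.34, 0.00266), AMADH2 (0.71 ± 0.16, 0.00343) and gdh1 (0.59 ± 0.19, 0.0359). It was negative for asn1 (-2.34 ± 0.26, 3.57e-06), HMT-2 (-1.83 ± 0.22, 9.55e-06), rf2c (-0.87 ± 0.22, 0.01), dps1 (-0.59 ± 0.18, 0.0274) and HMT-3 (-0.50 ± 0.13, 0.00818).

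HMT-1 and rf2b changed in opposite directions in the 2 lines. The aldehyde dehydrogenase gene rf2b fell by 0.76 ± 0.24 in Han21 (adjusted p = 0.00942) and rose by 0.80 ± 0.24 in Ye478 (0.00572). These calls missed 0.05 without replicate 1 of Han21 severe drought (0.0717) and without replicate 1 of Ye478 control (0.0505), and the Han21 call also with quantile normalization (0.0524). Of its 3 arrays, 2 were above the filter level in Han21 severe drought and 2 in Ye478 control. gdh1 fell in both lines, by less in Ye478, and rf2c fell in both, by more in Ye478.

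The calls of dps1 and gdh1 were lost without single arrays, while the differences stayed at -0.70 to -0.52 and 0.47 to 0.67 over all 24 arrays left out in turn. For dps1 the adjusted p was 0.0531 to 0.0769 without any 1 of replicates 2 and 3 of Han21 control, 1 and 2 of Han21 severe drought, 1 and 3 of Ye478 control, and 2 and 3 of Ye478 severe drought. For gdh1 it was 0.0613 to 0.109 without any 1 of replicates 1 and 2 of Han21 control, 2 and 3 of Han21 severe drought, 2 and 3 of Ye478 control, and 2 of Ye478 severe drought. The other 7 passed without any single array.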

How the results depend on the processing

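The values of lkrsdh1 moved by less than the spread between replicates (0.19 on the log2 scale) under every change of normalization, constant, filter, variance model and fitted samples and with the replicate block, under which all its differences were as printed. Leaving out replicates gave 2.26 to 2.58 for moderate drought minus control in Han21, 0.0912 to 0.520 for Ye478 minus Han21 in moderate drought and 0.13 to 0.56 for the difference in that response. Only 1 probe set is annotated to lkrsdh1, so a further one could not be tried. With at least 2-fold required, the genes called fell to 4, 9 and 3 in Han21 (moderate, severe, re-watered), to 5, 9 and 5 in Ye478 and to 4 for the difference between the lines. No share of all probe sets at that limit is given here, so these counts cannot be read against a background. Leaving out replicates gave 6 to 15 genes called for moderate drought in Han21 and 4 to 10 for the difference between the lines. With no filter, the share of probe sets called was 23.3% and 18.9% for re-watered Han21 and Ye478 and 10.4% for the difference between the lines, where the replicate block gave 25.1%. The same shares ranged from 18.2% to 35.7%, from 14.1% to 28.8% and from 4.99% to 16.5% with replicates left out, and that for moderate drought in Han21 from 25.4% to 41.9%. Of the 6 genes most like lkrsdh1, 3 were shared using the 8 group means, 2 in the Han21 arrays alone, 2 in the Ye478 arrays alone and 2 by Spearman correlation. For single list genes, 5545 of 5775 repeats kept the call, 160 lost one and 70 gained one, and none turned direction. The replicate block lost no call and gained 15, of which 6 were in moderate drought, 2 in severe drought, 4 after re-watering and 3 in the difference between the lines (gln1, gln3 and rf2). The causes were not tested. Values under the filter level in at least 1 array limit akh2, gln2, gln3, rf2b and fae1, and the genes left untested.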
